A study of Mus musculus with 6 samples.

Results

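The genes described here encode the cAMP machinery and the RGS proteins of mouse bone marrow mesenchymal stem cells. They were taken by a rule on gene names, and the families were chosen with earlier results of these data known. The rule covers adenylyl cyclases (Adcy), phosphodiesterases (Pde), A-kinase anchoring proteins (Akap) and regulators of G protein signalling (Rgs). It also covers subunits of cAMP-dependent protein kinase (PKA, genes Prkaca, Prkacb and Prkar) and the CREB family of transcription factors (Creb and Crem). The name rule took 78 of the 19353 genes in the count table, and 61 of them had a mean of at least 10 counts over the 6 libraries and are the members reported. The other 17 lay below that minimum. In 3 samples, cells of wild-type genotype were kept in osteogenic medium with 0.5 µM melanin-concentrating hormone (MCH). In the 3 Control samples they were kept in the same medium without MCH. Both media held dexamethasone at 100 nM, ascorbic acid at 50 µM and β-glycerophosphate at 10 mM. Titles place the samples at day 9, whereas the design text says day 8. The labels do not tie the samples of a group to different animals or cultures, so the p-values below describe only the spread among these samples, which may be technical.

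Adenylyl cyclases make cAMP from ATP, stimulated by Gs and, for several isoforms, inhibited by Gi, and phosphodiesterases break it down. cAMP binds the regulatory subunits of PKA and frees the catalytic subunits, AKAPs hold the kinase at particular places in the cell, and PKA phosphorylates CREB, which binds the cAMP response element of its target genes. RGS proteins speed the hydrolysis of GTP by G protein alpha subunits and so end the signal of a receptor. In bone-forming cells the pathway is best known as the route of parathyroid hormone, and the MCH receptor Mchr1 is known to couple to Gi/o and Gq.

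Library totals ran from 16755247 to 18090083 counts with MCH and from 16521980 to 18803949 counts in Control, and the 61 genes took 0.184% to 0.228% of the counts of a library. Along the leading principal component of the libraries, MCH replicate 1 scored -10.9 and MCH replicates 2 and 3 scored -32.3 and -24.8, while the Control libraries scored 18.9 to 25.5. Of the markers, 10 of 10 mesenchymal stromal genes were present. Their summed level was 1842 to 1926 CPM with MCH and 2426 to 2514 CPM in Control. Ly6a had 533 CPM with MCH and 997 CPM in Control (edgeR adjusted p = 0.00364), and Pdgfrb, Pdgfra and Nt5e also fell. The other genes of the list did not pass the test, among them Itgb1 with 857 CPM with MCH and 813 CPM in Control. Smooth muscle and pericyte markers summed to 1688 to 1872 CPM with MCH and 1411 to 1553 CPM in Control. The 6 osteoblast markers used summed to 4183 to 4597 CPM with MCH and 6072 to 6734 CPM in Control: Alpl, Spp1 and Col1a1 fell (log2 fold changes of -1.28, -1.06 and -0.44; edgeR adjusted p = 0.000335, 0.000175 and 0.0197), Runx2 did not pass the test (-0.24, adjusted p = 0.0822), and Sp7 and Bglap had at most 4 counts in any library. The pan-leukocyte gene Ptprc had at most 2 counts. The nuclear RNAs Malat1 and Neat1 together had 1813 to 1926 CPM with MCH and 2463 to 2956 CPM in Control. The part of these RNAs and of the markers above in the results below was not tested. The names of the Control columns do not contain the word Control, and every direction given rests on their lacking MCH. In bulk RNA, fewer cells of a kind and less RNA per cell cannot be told apart.

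With MCH, 7 of the 61 genes fell and 1 rose. Those that fell were the cAMP phosphodiesterase Pde8b, the RGS genes Rgs4 and Rgs3, the anchoring protein Akap13, the transcription factor Creb3l1, the cyclase Adcy6 and the PKA regulatory subunit Prkar1b. The one that rose was Rgs10. The falls ran from 0.33 to 1.07 on the log2 scale, and the rise was 0.66. Loci given below are on GRCm38, as the count table has them. Calls are at a Benjamini-Hochberg adjusted p under 0.05 in edgeR's quasi-likelihood test over all 13662 genes tested, and all 61 members were tested. Members were called lower in 11.5% of cases, against 5.40% of all genes, and higher in 1.64%, against 3.64% of all genes. In either direction the shares were 13.1% of members and 9.04% of all genes. Because the families were chosen with earlier results known, these shares describe the members and are no test of enrichment. The median log2 fold change (MCH minus Control) was -0.09 over the members and 0.00 over all genes. Where the mean reached 100 counts, 16.3% of 43 members and 10.6% of all genes were called.

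The normalised counts of the groups did not overlap for 15 members that were lower with MCH (24.6%, against 16.6% of all genes) and for 4 that were higher (6.56%, against 16.1% of all genes); in either direction 32.8% of all genes did not overlap. Leaving out 1 library changed the number of members called. The fits without MCH replicates 1, 2 and 3 called 6, 2 and 2 members lower, and those without Control replicates 1, 2 and 3 called 4, 1 and 1. The rise of Rgs10 was called in 1 of these 6 fits, the fit without MCH replicate 1. A trend of each library's log2 CPM with gene length and GC content was also removed, a choice made after seeing the data. The length was the one implied by the deposited counts and FPKM. This fit left 5 members lower and 2 higher, where 5.13% of all genes were lower and 6.96% higher. Over all genes, 57.6% of the calls were higher in that fit and 40.2% without the correction.

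**Figure D1:**
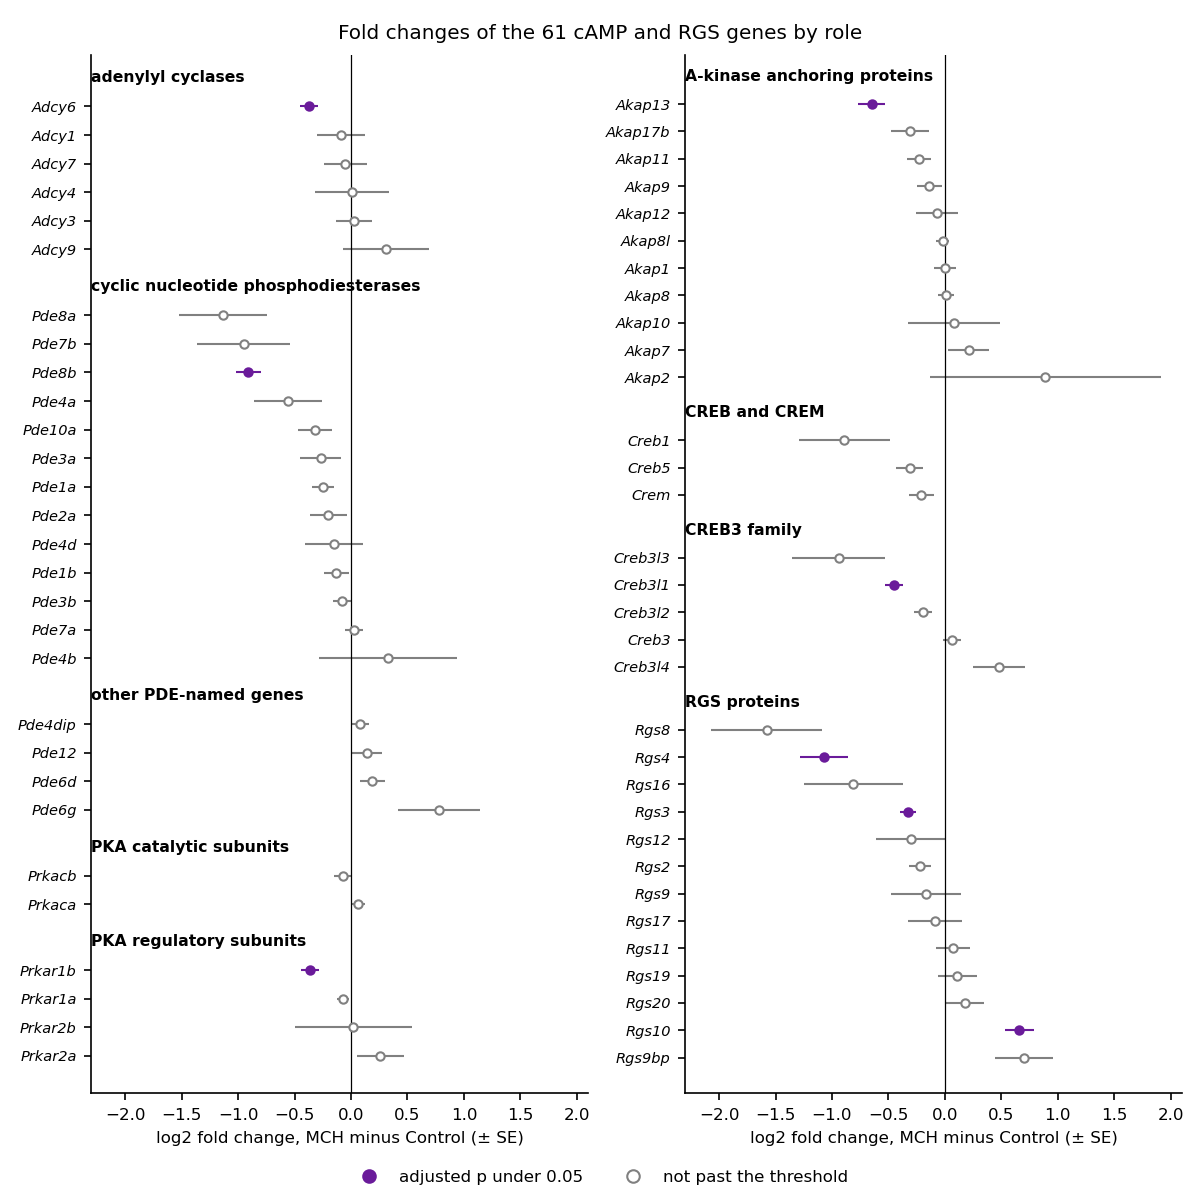
Log2 fold change (MCH minus Control) of the 61 members, with lines for its standard error, grouped by role; filled points passed the adjusted p of 0.05. Pde8b, Rgs4, Akap13, Creb3l1, Adcy6, Prkar1b and Rgs3 passed below 0, and Rgs10 passed above 0.

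The promoters of the members with the strongest called changes are shown first, because CREB proteins act through a short DNA motif that can be looked for in them. RefSeq entries (GRCm38.p6) were found for 49 of the 61 genes, with 99 start sites, and the 250 bases before each listed start were searched on both strands. The full cAMP response element TGACGTCA, which is its own reverse complement, stood in 2.02% of the 99 promoters (Creb5 and Prkar1a), against 1.55% of all 32851 promoters. Its shorter form TGACG, read on either strand, which every full element also contains, stood in 22.2% of the members' promoters, against 17.8% of all. The 4 called members with the largest changes among those with an entry follow, with Prkar1a as 1 of the 2 members that hold the full element. Neither of these 2 members, Creb5 or Prkar1a, passed the test. Capitals mark the full element or its short form on either strand, and each sequence ends at the base before the listed start.
Rgs4, chr1:169747643-169747892, minus strand: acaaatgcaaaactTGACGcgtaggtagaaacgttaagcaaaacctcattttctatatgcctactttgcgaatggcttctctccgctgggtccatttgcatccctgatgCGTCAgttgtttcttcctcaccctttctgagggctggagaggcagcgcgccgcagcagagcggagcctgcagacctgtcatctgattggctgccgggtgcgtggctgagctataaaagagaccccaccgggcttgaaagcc
Pde8b, chr13:95250337-95250586, minus strand: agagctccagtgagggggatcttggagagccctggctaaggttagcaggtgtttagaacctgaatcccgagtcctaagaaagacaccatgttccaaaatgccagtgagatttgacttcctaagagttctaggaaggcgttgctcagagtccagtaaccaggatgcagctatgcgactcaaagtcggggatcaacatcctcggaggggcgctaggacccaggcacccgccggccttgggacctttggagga
Rgs10, chr7:128418173-128418422, minus strand: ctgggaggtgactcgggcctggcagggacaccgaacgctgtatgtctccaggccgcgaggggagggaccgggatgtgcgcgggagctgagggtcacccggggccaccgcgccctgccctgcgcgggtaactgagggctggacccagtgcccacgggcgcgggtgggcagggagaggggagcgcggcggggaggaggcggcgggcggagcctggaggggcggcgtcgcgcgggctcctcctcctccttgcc
Akap13, chr7:75455284-75455533, plus strand: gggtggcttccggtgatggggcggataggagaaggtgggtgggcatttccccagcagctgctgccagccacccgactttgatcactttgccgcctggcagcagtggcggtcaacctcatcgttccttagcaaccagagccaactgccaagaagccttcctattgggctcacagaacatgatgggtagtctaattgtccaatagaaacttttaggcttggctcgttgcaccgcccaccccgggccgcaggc
Prkar1a, chr11:109650699-109650948, plus strand: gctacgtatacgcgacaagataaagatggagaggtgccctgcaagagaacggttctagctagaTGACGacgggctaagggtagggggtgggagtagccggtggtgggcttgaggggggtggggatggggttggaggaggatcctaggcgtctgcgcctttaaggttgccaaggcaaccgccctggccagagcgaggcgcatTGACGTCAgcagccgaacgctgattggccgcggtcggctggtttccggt
In the Rgs4 promoter the short form began 236 and 141 bases before the start, and in that of Prkar1a 187, 49 and 46 bases before it, the last 2 on opposite strands of the full element. The windows of Pde8b, Rgs10 and Akap13 held no match. The start sites of Rgs10 and Prkar1a lie 586 and 1544 bases inside the locus given in the count table. A match in these letters is a description of the sequence and not a bound site.

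Among the enzymes that make cAMP, Adcy6 fell and the other 5 cyclases did not pass the test. Adcy6, a cyclase that Gi proteins and calcium inhibit, was by far the most abundant per length: it made up 80.3% of the summed cyclase FPKM with MCH and 83.9% in Control. Adcy6 (chr15:98589994-98607633) had 111, 95.7 and 94.8 CPM in MCH replicates 1 to 3 and 123, 135 and 132 CPM in Control replicates 1 to 3. All 3 MCH libraries lay below all 3 Control libraries, with MCH replicate 1 the closest. The mean was 101 ± 9.10 CPM with MCH and 130.0 ± 6.21 CPM in Control (SD, n = 3 each), a log2 fold change of -0.37 ± 0.08 (SE; edgeR adjusted p = 0.0298). The call did not survive leaving out MCH replicate 2 or 3 (adjusted p = 0.0987 and 0.124) or leaving out Control replicate 2 or 3 (0.100 and 0.107). In limma on log2(FPKM + 1) Adcy6 just missed the threshold (adjusted p = 0.0510).

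Of the other cyclases, Adcy7 had 12.1 ± 3.10 CPM with MCH and 12.5 ± 0.684 CPM in Control, and Adcy3 had 15.8 ± 3.22 and 15.5 ± 1.87 CPM. Adcy1, Adcy4 and Adcy9 stayed under 5 CPM in every library. The log2 fold changes of these 5 genes ran from -0.09 to 0.31. Summed over the 6 cyclases, the level was 23.7, 18.9 and 19.7 FPKM in the MCH libraries and 24.3, 26.6 and 26.6 FPKM in the Control libraries, and the groups did not overlap. An antisense gene covers 8.92% of the exon bases of Adcy6, and Cenpo covers 22.1% of those of Adcy3 on the opposite strand. Whether counting used the strand is not given in the sources used here.

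Of the 13 enzymes that break down cyclic nucleotides, 1 fell and none rose (7.69% called, against 9.04% of all genes). That gene was Pde8b, which encodes a phosphodiesterase that is specific for cAMP and binds it with high affinity. Pde8b (chr13:95024454-95250336) had 16.3, 13.5 and 13.1 CPM in the MCH libraries and 25.4, 28.0 and 27.0 CPM in the Control libraries. Every MCH library lay well below every Control library. Its mean was 14.3 ± 1.74 CPM with MCH and 26.8 ± 1.32 CPM in Control (SD, n = 3 each), a log2 fold change of -0.91 ± 0.11 (edgeR adjusted p = 0.00382). Pde8b kept its call in all 6 fits with 1 library left out, where the adjusted p reached 0.0228 at most. An antisense gene covers 7.6% of its exon bases. Per length, Pde8b made up 14.9% of the summed FPKM of the 7 cAMP-specific phosphodiesterase genes (the PDE4, PDE7 and PDE8 families) with MCH and 20.9% in Control.

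Of these 13 genes, 11 had a log2 fold change below 0, where 6789 of all 13662 genes did. Their median was -0.25, or -0.14 once the length and GC trend was removed. Pde8a, the close relative of Pde8b, had 0.939, 0.508 and 0.812 CPM with MCH and 2.46, 1.31 and 1.22 CPM in Control. Its groups did not overlap, but at -1.13 ± 0.39 it did not pass the test (edgeR adjusted p = 0.113). Pde1a, whose enzyme is switched on by calcium and calmodulin, had 30.1 ± 1.23 CPM with MCH and 35.9 ± 3.94 CPM in Control (-0.25 ± 0.10, edgeR adjusted p = 0.146). Pde7a, another cAMP-specific enzyme, had 32.2 ± 1.24 CPM with MCH and 31.6 ± 1.73 CPM in Control. Pde3b, which insulin signalling activates in fat cells, had 25.5 ± 1.77 and 26.9 ± 0.826 CPM. Pde1b, Pde2a, Pde3a, Pde7b and Pde10a also did not pass the test, with log2 fold changes from -0.95 (Pde7b, at most 2.51 CPM) to -0.13 (Pde1b).

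The PDE4 genes, whose enzymes are the targets of rolipram, did not pass the test, and Pde4a and Pde4b differed widely among the MCH libraries. Pde4a had 38, 16.5 and 32.7 CPM with MCH and 43.0, 42.3 and 43.5 CPM in Control (-0.56 ± 0.30, edgeR adjusted p = 0.304). Its 3 Control libraries were nearly equal, while MCH replicate 2 had less than MCH replicates 1 and 3. Pde4b had 37.4, 8.35 and 12.7 CPM with MCH and 13.4, 17.1 and 16.1 CPM in Control (0.33 ± 0.61, edgeR adjusted p = 0.782). Here MCH replicate 1 lay above all other libraries and the other 2 MCH libraries below all of them. Pde4d had 5.64 ± 0.966 CPM with MCH and 6.26 ± 2.02 CPM in Control. Summed over the 7 cAMP-specific genes, the level was 10.5, 5.85 and 8.07 FPKM with MCH and 10.1, 11.0 and 10.5 FPKM in Control, so MCH replicate 1 lay among the Control libraries.

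Among the members were also 4 Pde genes that do not encode cAMP-degrading enzymes. Pde4dip (myomegalin) is a centrosome and Golgi protein, Pde6d carries prenylated proteins, Pde6g is the inhibitory subunit of the retinal rod enzyme and Pde12 acts on oligoadenylates and mitochondrial RNA. None passed the test, and all 4 had log2 fold changes above 0, from 0.08 to 0.78. Pde4dip had 61.2 ± 4.36 CPM with MCH and 58.1 ± 2.36 CPM in Control, and was called higher once the length and GC trend was removed (edgeR adjusted p = 0.0314).

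Neither catalytic subunit of the kinase passed the test, and of the 4 regulatory subunits 1 did. Prkaca, the main catalytic subunit, had 149, 163 and 154 CPM with MCH and 152, 152 and 143 CPM in Control, and the groups overlapped (0.06 ± 0.06, edgeR adjusted p = 0.568). Prkacb, the other catalytic subunit, had 105 ± 9.90 CPM with MCH and 110.0 ± 2.38 CPM in Control (-0.07 ± 0.08). Prkar1a, the regulatory subunit that made up 81.3% of the summed regulatory FPKM with MCH and 81.9% in Control, had 268, 272 and 274 CPM with MCH and 277, 286 and 292 CPM in Control. All MCH libraries lay below all Control libraries by a small margin, and the difference of -0.07 ± 0.05 did not pass the test (edgeR adjusted p = 0.442).

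Prkar1b, a regulatory subunit best known from neurons, fell. Prkar1b (chr5:139017306-139150001) had 24.1, 26.5 and 26.0 CPM with MCH and 34.7, 32.1 and 31.9 CPM in Control, with no overlap. The log2 fold change was -0.36 ± 0.08 (edgeR adjusted p = 0.0342). Another gene, Gm15672, covers 8.95% of the exon bases of Prkar1b on the same strand. The call was lost in each of the 6 fits with 1 library left out (adjusted p from 0.0594 without MCH replicate 1 to 0.113 without MCH replicate 3) and once the length and GC trend was removed (-0.29, adjusted p = 0.0650). Prkar2b, which had 49.6, 35.1 and 24.9 CPM with MCH and 61.6, 25.9 and 21.1 CPM in Control, varied more within groups than between them (0.02 ± 0.52). Prkar2a had 36.2 ± 5.43 CPM with MCH and 30.3 ± 8.23 CPM in Control (0.26 ± 0.21). The ratio of summed regulatory to summed catalytic FPKM was 0.985 ± 0.0524 with MCH and 1.06 ± 0.0249 in Control (SD, n = 3 each), with values of 1.04, 0.935 and 0.980 in the MCH libraries and 1.06, 1.03 and 1.08 in the Control libraries. These groups overlapped.

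Of the 11 A-kinase anchoring proteins, Akap13 fell and the others did not pass the test (9.09% called, near the 9.04% of all genes). Akap13 (AKAP-Lbc), which anchors PKA and is itself an exchange factor for RhoA, had 52.4, 39.4 and 43.2 CPM with MCH and 64.3, 69.5 and 77.3 CPM in Control (chr7:75455534-75754609). Its lowest Control library lay above its highest MCH library. The mean was 45.0 ± 6.69 CPM with MCH and 70.4 ± 6.50 CPM in Control (SD, n = 3 each), a log2 fold change of -0.65 ± 0.12 (edgeR adjusted p = 0.0196). The call did not survive leaving out MCH replicate 2 or 3 (adjusted p = 0.0579 and 0.0850) or leaving out Control replicate 2 or 3 (0.0675 and 0.0836).

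The most abundant anchoring genes per length were Akap8l and Akap8, which encode nuclear proteins, and neither passed the test. Akap8l had 133 ± 3.93 CPM with MCH and 135 ± 3.73 CPM in Control, and Akap8 had 114 ± 5.11 and 112 ± 7.55 CPM. Akap1, which brings PKA to the mitochondrial surface, had 49.6 ± 4.77 CPM with MCH and 49.4 ± 3.67 CPM in Control. Akap11 and Akap9, 2 long scaffolds, had log2 fold changes of -0.23 ± 0.11 and -0.14 ± 0.11 (edgeR adjusted p = 0.235 and 0.454). Akap7, Akap12 and Akap17b, at log2 fold changes of 0.21, -0.07 and -0.31, did not pass either. The summed level of the 11 genes was 145, 121 and 123 FPKM with MCH and 129, 131 and 129 FPKM in Control, and MCH replicate 1, with the highest sum, was also the library with the most Akap2.

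**Figure D2:**
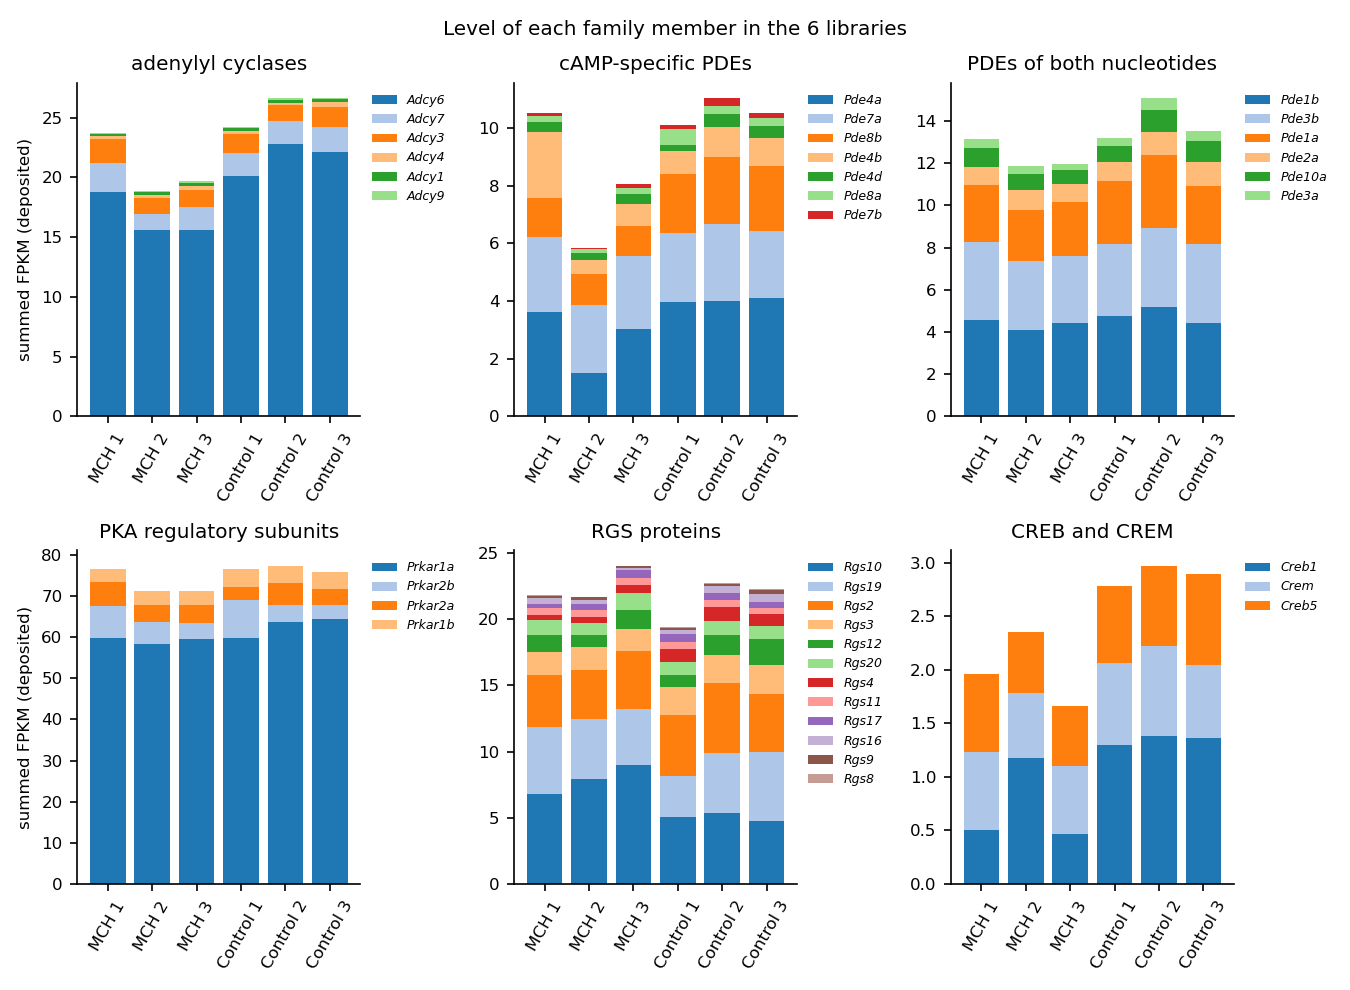
Deposited FPKM of each gene, stacked to the sum of its family, in the 3 MCH libraries and the 3 Control libraries, for 6 families. The sums of the cyclases and of the CREB and CREM genes were lower in every MCH library than in any Control library. So, by a small margin, was that of the phosphodiesterases of both cyclic nucleotides. Adcy6 and Prkar1a form most of their bars.

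None of the 3 CREB and CREM genes passed the test, and all 3 had log2 fold changes below 0. Creb1, the main CREB of most cells, had 10.3, 24.8 and 9.75 CPM with MCH and 27.4, 28.1 and 27.9 CPM in Control. The Control libraries were nearly equal, and MCH replicate 2 lay close to them while MCH replicates 1 and 3 lay far below. The log2 fold change was -0.89 ± 0.40 (edgeR adjusted p = 0.228), and without MCH replicate 2 it was -1.47 with an adjusted p of 0.00105. DESeq2, with all libraries, called Creb1 lower (adjusted p = 0.0442). Creb5 had 24.2, 19.7 and 19.1 CPM with MCH and 24.9, 24.8 and 28.5 CPM in Control (-0.31 ± 0.12, edgeR adjusted p = 0.138), and was called only in the fit without MCH replicate 1 (adjusted p = 0.0450). Crem, which also makes the repressor ICER, had 14.9 ± 1.17 CPM with MCH and 17.2 ± 1.71 CPM in Control (-0.21 ± 0.11, edgeR adjusted p = 0.283).

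The CREB3 family encodes transcription factors that are held in the membrane of the endoplasmic reticulum and released by cleavage. Its member Creb3l1 (OASIS), known in osteoblasts as an activator of the collagen gene Col1a1, fell. Creb3l1 (chr2:91982328-92024502) had 16.5, 17.1 and 17.1 CPM with MCH and 22.7, 22.7 and 23.7 CPM in Control. Both groups were tight and did not overlap. The log2 fold change was -0.45 ± 0.08 (edgeR adjusted p = 0.0175). The call did not survive leaving out MCH replicate 2 or 3 (adjusted p = 0.0624 and 0.0748) or leaving out Control replicate 2 or 3 (0.0609 and 0.0778).

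Its relative Creb3l2, which is known for control of secretion in cartilage cells, had 98.0, 82.4 and 88.1 CPM with MCH and 95.5, 105 and 107 CPM in Control, and the groups overlapped (-0.19 ± 0.08, edgeR adjusted p = 0.182). Creb3 had 63.0 ± 3.41 CPM with MCH and 60.6 ± 3.28 CPM in Control. Creb3l3 and Creb3l4 stayed under 3 CPM in every library and did not pass the test. Creb3 shares 15.2% of its exon bases with Tln1 on the opposite strand.

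Of the 13 Rgs genes, 2 fell, both of the R4 subfamily, and 1 of the R12 subfamily rose. The share called was 23.1%, against 9.04% of all genes. All 5 members of the R4 subfamily, small RGS proteins that act on Gi and Gq, had log2 fold changes below 0. Among these 5, Rgs8 reached the mean of 10 counts only through its Control libraries, so the minimum itself favoured its fall. The R4 genes Rgs1 and Rgs5 lay below the minimum and were not tested. Over all genes, 6789 of 13662 lay below 0. The R4 median was -0.81, which is the value of the weakly expressed Rgs16 (mean of 15.8 counts), and 2 of the 5 genes passed the test. In limma on log2(FPKM + 1) the median was -0.22, with 1 call. Once the length and GC trend was removed it was -0.78, also with 1 call. Rgs4 (chr1:169741477-169747642) had 2.17, 2.48 and 3.60 CPM with MCH and 5.78, 6.07 and 5.46 CPM in Control. Each Control library was above each MCH library by a wide margin. The mean was 2.75 ± 0.750 CPM with MCH and 5.77 ± 0.306 CPM in Control (SD, n = 3 each), a log2 fold change of -1.07 ± 0.21 (edgeR adjusted p = 0.0238). The call did not survive leaving out MCH replicate 2 (adjusted p = 0.0785) or leaving out Control replicate 1, 2 or 3 (0.0547, 0.0820 and 0.0761). Its promoter, printed above, holds the short cAMP response element at 2 places.

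Rgs3 (chr4:62559847-62704001), a second R4 gene, had 25.2, 25.4 and 24.5 CPM with MCH and 32.1, 30.5 and 31.6 CPM in Control. Its groups were tight and did not overlap. The log2 fold change was -0.33 ± 0.07 (edgeR adjusted p = 0.0346). Without any 1 library the call was lost (adjusted p from 0.0523 without MCH replicate 1 to 0.135 without MCH replicate 3). It was also lost once the length and GC trend was removed (-0.16, adjusted p = 0.212) and in limma on log2(FPKM + 1) (adjusted p = 0.0846).

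The other R4 genes did not pass the test. Rgs2, which acts mainly on Gq and is known to be induced by parathyroid hormone in bone cells, had 18.3, 17.9 and 20.8 CPM with MCH and 21.9, 24.1 and 20.6 CPM in Control (-0.22 ± 0.10, edgeR adjusted p = 0.211). Its groups overlapped by 1 library on each side. Rgs8 and Rgs16 were near the minimum for inclusion. Rgs8 had 7, 6 and 5 counts with MCH and 15, 31 and 10 counts in Control (-1.58 ± 0.49, edgeR adjusted p = 0.0846), and Rgs16 had 16, 12 and 6 counts with MCH and 12, 23 and 26 counts in Control (-0.81 ± 0.44, edgeR adjusted p = 0.274).

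Rgs10, a small RGS protein of the R12 subfamily that acts on Gi, rose. Rgs10 (chr7:128373621-128418758) had 16.3, 19.7 and 22.2 CPM with MCH and 12.4, 12.8 and 11.5 CPM in Control. All MCH libraries lay above all Control libraries, with MCH replicate 3 the highest. The mean was 19.4 ± 2.97 CPM with MCH and 12.2 ± 0.679 CPM in Control (SD, n = 3 each), a log2 fold change of 0.66 ± 0.13 (edgeR adjusted p = 0.0245). The call did not survive leaving out MCH replicate 2 or 3 (adjusted p = 0.0762 and 0.0913) or leaving out Control replicate 1, 2 or 3 (0.0557, 0.0707 and 0.0960). By the deposited FPKM, Rgs10 was the most abundant Rgs gene, with 35.1% of the summed Rgs FPKM with MCH and 23.6% in Control.

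Rgs10 is known to be abundant in macrophages and microglia, and the macrophage list was uneven across the libraries. In MCH replicate 3, where Rgs10 was highest, Adgre1 had 50 counts, C1qb 31 and C1qc 27, against 0 to 11, 0 to 9 and 0 to 4 in the other libraries. Cd14, the most abundant gene of the list, was lower with MCH instead, at 94.6 ± 3.79 CPM against 127 ± 3.91 CPM in Control (SD, n = 3 each; log2 fold change of -0.43, edgeR adjusted p = 0.00678). Cd68 had 45.9 ± 7.26 CPM with MCH and 33.1 ± 3.66 CPM in Control (edgeR adjusted p = 0.0655), and C1qa had at most 3 counts in any library. Summed over the 10 macrophage and monocyte markers listed, with both rows of Itgam, levels were 138 to 180 CPM with MCH and 167 to 171 CPM in Control. Without MCH replicate 3 the log2 fold change of Rgs10 was 0.56 (edgeR adjusted p = 0.0913). The part of macrophage RNA in the Rgs10 values was not tested.

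The remaining Rgs genes did not pass the test. Rgs12, a large R12 protein with several signalling domains, had 20.5, 15.3 and 23.4 CPM with MCH and 15.3, 24.8 and 32.9 CPM in Control (-0.30 ± 0.31, edgeR adjusted p = 0.587). The RZ genes, whose proteins act on Gz and other Gi-type subunits, were Rgs19 with 29.7 ± 2.24 CPM with MCH and 27.6 ± 6.56 CPM in Control, Rgs20 with 6.35 ± 1.12 and 5.59 ± 0.435 CPM, and Rgs17 with 4.50 ± 1.17 and 4.78 ± 0.986 CPM. Of the R7 genes, which pair with the subunit Gnb5, Rgs11 had 4.97 ± 0.457 and 4.73 ± 0.446 CPM and Rgs9 had 1.35 ± 0.124 and 1.52 ± 0.568 CPM. Rgs9bp, which encodes the membrane anchor of RGS9 and is no RGS protein itself, had 2 ± 0.228 CPM with MCH and 1.23 ± 0.322 CPM in Control (0.70 ± 0.26, edgeR adjusted p = 0.136).

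**Figure D3:**
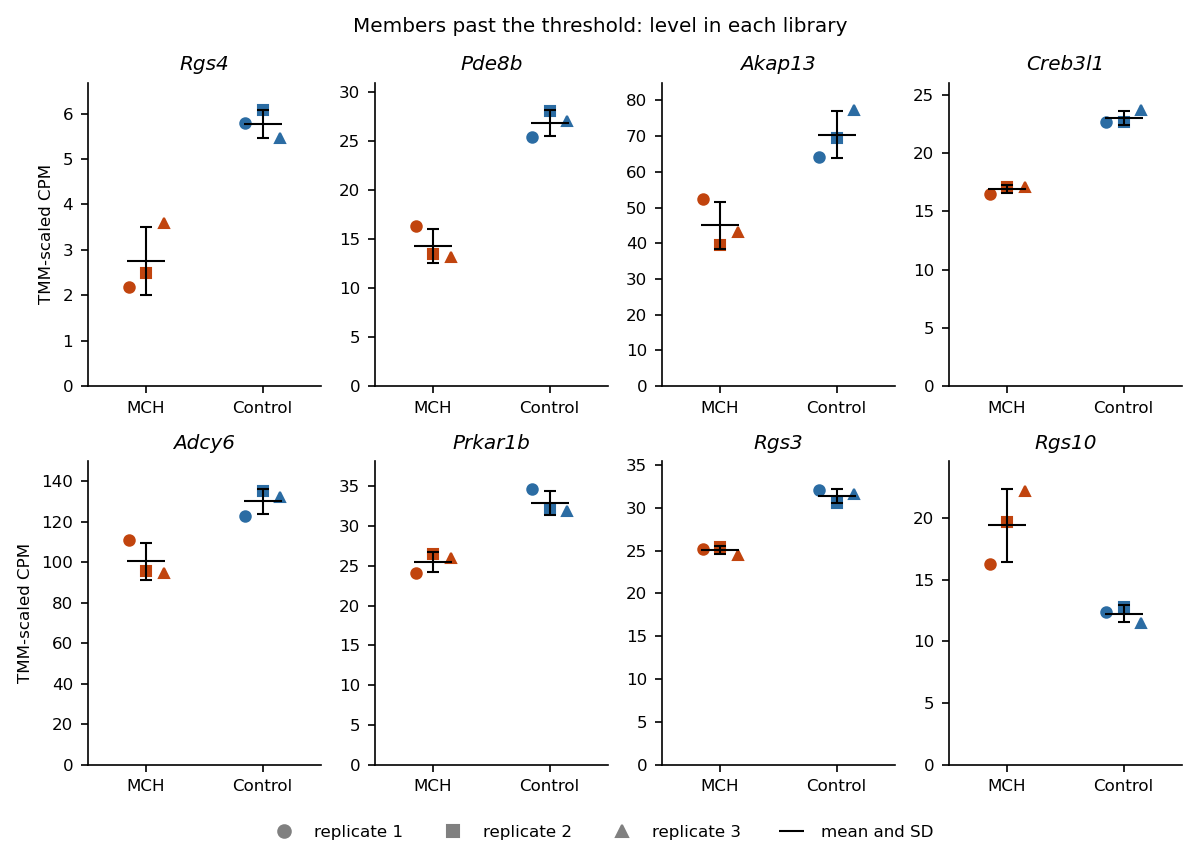
TMM-scaled CPM of the 8 called members in each library, with points for replicates and lines for the mean and SD. Rgs10 is higher in each MCH library than in any Control library, and the other 7 genes are lower.

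Several members differed widely between replicates of the same group. Of the 43 members whose mean reached 100 counts, 4 (9.30%) differed 2-fold or more between the highest and lowest MCH library, and 4 (9.30%) between the Control libraries. Among all 10489 genes with that mean, the shares were 4.52% and 3.85%. Within MCH the genes were Akap2 (7.38-fold), Pde4b (4.48-fold), Creb1 (2.55-fold) and Pde4a (2.30-fold). Within Control they were Akap2 (3.8-fold), Akap10 (3.01-fold), Prkar2b (2.91-fold) and Rgs12 (2.15-fold).

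Akap2, an actin-linked anchoring protein, had 223, 30.2 and 49.8 CPM with MCH and 103, 27.2 and 33.5 CPM in Control. Replicate 1 was the highest of each group. Its log2 fold change was 0.89 ± 1.02 (edgeR adjusted p = 0.641), and without MCH replicate 1 it was -0.45. Pakap covers 84.4% of its exon bases on the same strand, so reads of the 2 genes may have been split between them. Akap10, which anchors PKA at mitochondria, had 17.0, 16.9 and 15.7 CPM with MCH and 6.88, 19.3 and 20.7 CPM in Control, and only Control replicate 1 lay apart. MCH replicate 1 was the highest MCH library for Akap2, Pde4a and Pde4b, and MCH replicate 2 was the highest for Creb1.

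**Figure D4:**
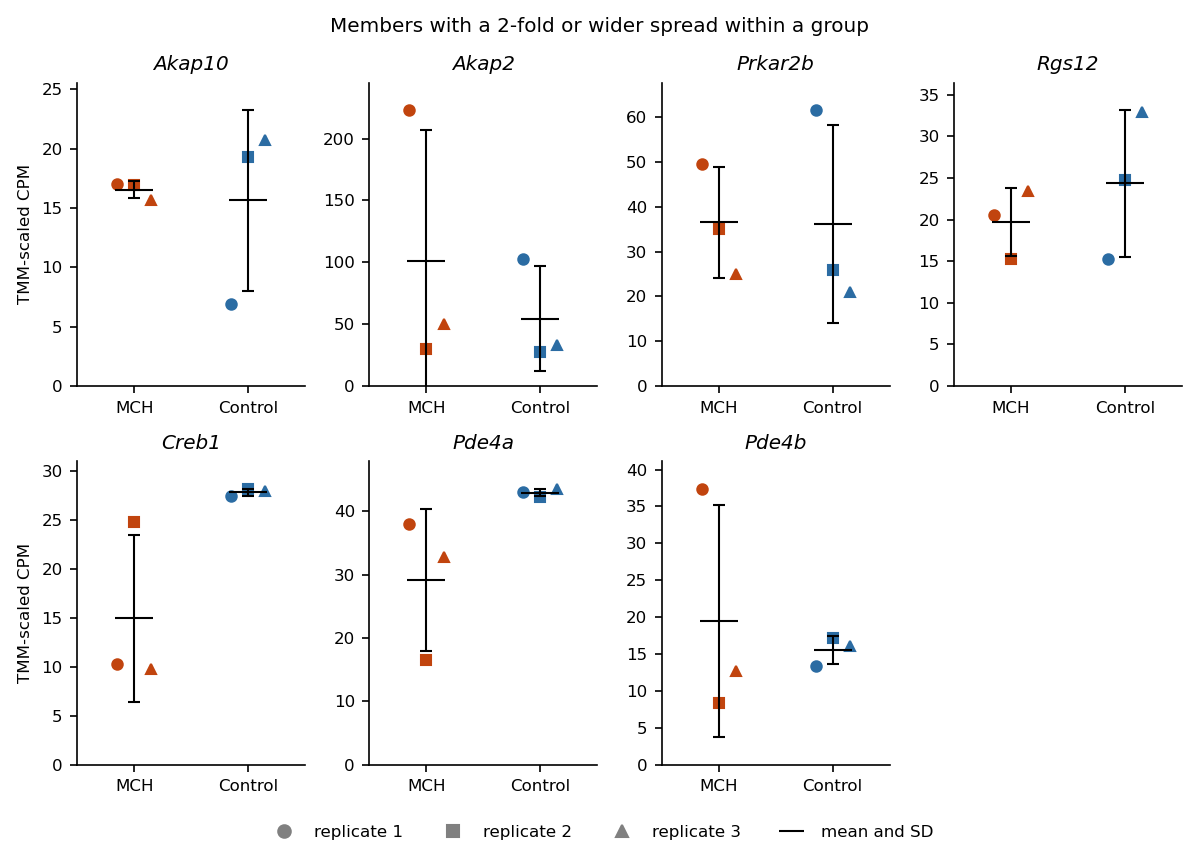
TMM-scaled CPM in each library of the 7 members that average at least 100 counts and whose highest and lowest library within a group differ 2-fold or more, with points for replicates and lines for the mean and SD (the lower SD line of Akap2 with MCH runs below the axis). Akap2 spans 30.2 to 223 CPM within MCH, and the Control values of Creb1 and Pde4a are nearly equal while their MCH values spread.

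Other genes of the pathway, none of them named by the rule, were taken from lists of 91 genes, of which 74 were tested. These lists were chosen with earlier results of these data known. With MCH 10 fell and 1 rose (13.5% and 1.35%, against 5.40% and 3.64% of all genes). Among the receptors, 1 of 13 changed (7.69%, against 9.04% of all genes): Mchr1, the receptor of MCH itself, had 24.5, 24.0 and 25.2 CPM with MCH and 49.0, 45.6 and 46.6 CPM in Control, with no overlap (-0.94 ± 0.07, edgeR adjusted p = 0.000656). Among the 19 G protein subunits, Gng10 rose and Gnao1 fell (10.5% of the list). Gng10, a gamma subunit, had 63.5 ± 0.836 CPM with MCH and 43.1 ± 4.79 CPM in Control (0.56 ± 0.09, edgeR adjusted p = 0.0122). Leaving out MCH replicate 3 or Control replicate 2 ended the call of Gng10 (adjusted p = 0.0535 and 0.0531). Gnao1, which encodes the alpha subunit of Go, had 28.0 ± 4.79 CPM with MCH and 42.2 ± 3.61 CPM in Control (-0.59 ± 0.13, edgeR adjusted p = 0.0363), and was called only without MCH replicate 1 among the fits with 1 library left out (adjusted p from 0.0724 to 0.121 without any other library). The alpha subunit of Gs, Gnas, had 955 ± 46.2 CPM with MCH and 905 ± 22.6 CPM in Control (0.08 ± 0.07, edgeR adjusted p = 0.501), and Gnai2 had 372 ± 14.6 and 406 ± 13.3 CPM (-0.12 ± 0.06, edgeR adjusted p = 0.228).

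None of 6 receptor kinases and arrestins and none of 6 other cAMP effectors and PKA inhibitors passed the test. Another list held CREB coactivators, kinases and related genes such as Atf1, Crebl2, Crebzf and Crebrf. Of its 13 tested genes, 11 had log2 fold changes below 0, where 6789 of all 13662 genes did, and 1 passed the test (7.69%). The shares called among the receptors, the G protein subunits and this list thus lay near the 9.04% of all genes. The called coactivator gene, Crtc3, whose product moves to the nucleus when cAMP rises, had 32.3 ± 1.71 CPM with MCH and 43.5 ± 1.39 CPM in Control (-0.43 ± 0.08, edgeR adjusted p = 0.0168). Its relatives Crtc1 and Crtc2 had log2 fold changes of -0.36 ± 0.10 and -0.17 ± 0.07 (edgeR adjusted p = 0.0596 and 0.164). Crtc3 lost its call on leaving out MCH replicate 2 or 3 or leaving out Control replicate 2 or 3 (adjusted p from 0.0535 to 0.0822).

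Of 17 genes known as targets of cAMP and CREB, 7 fell and none rose, which is 41.2% against 5.40% of all genes. The list was chosen with earlier results of these data known, so this share describes the list and is no test of enrichment. The 7 genes were Fos, Fosb, Egr1, Junb, Gem, Il6 and Nr4a1. Fos, Fosb and Egr1 had log2 fold changes of -0.95, -0.91 and -0.53 (edgeR adjusted p = 0.0025, 0.000922 and 0.00364). Fos, Fosb, Egr1 and Gem kept their calls in all 6 fits with 1 library left out. Junb, a partner of FOS in the AP-1 factor, had 213, 213 and 221 CPM with MCH and 301, 287 and 366 CPM in Control (-0.56 ± 0.09, edgeR adjusted p = 0.0132). The small GTPase gene Gem had 11.1 ± 0.671 CPM with MCH and 18.3 ± 1.98 CPM in Control, and the cytokine gene Il6 had 30.1 ± 1.08 and 45.6 ± 5.00 CPM. Nr4a1, an orphan nuclear receptor gene, had 32.5 ± 1.60 and 43.0 ± 1.03 CPM (-0.41 ± 0.07, edgeR adjusted p = 0.0184), and lost its call on leaving out MCH replicate 2 or 3 or leaving out Control replicate 2 or 3 (adjusted p from 0.0570 to 0.0784). Without MCH replicate 3, Junb and Il6 also missed the threshold (adjusted p = 0.0570 and 0.0509). Other targets on the list did not pass the test. The prostaglandin synthase gene Ptgs2 had 591 ± 62.7 CPM with MCH and 714 ± 73.5 CPM in Control, the phosphatase gene Dusp1 281 ± 16 and 296 ± 7.65 CPM, and the clock gene Per1 141 ± 10.6 and 144 ± 11.4 CPM. Many of these targets also answer to serum and growth factor signals, so the list does not stand for cAMP alone.

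**Figure D5:**
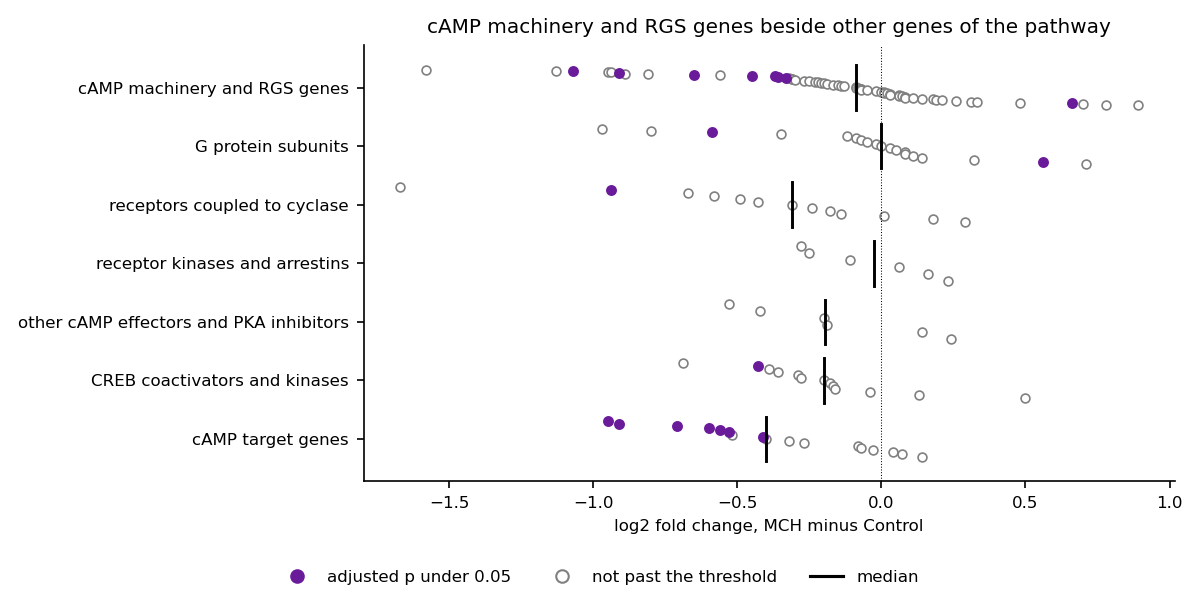
Log2 fold change (MCH minus Control) of each tested gene in the cAMP and RGS families and in the lists of other pathway genes, with filled points past the adjusted p of 0.05 and a bar at each median. The cAMP target genes hold 7 called genes, all below 0, and Mchr1 is the called receptor.

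Per length, the deposited FPKM put Prkaca first among the catalytic subunits (67.3 ± 2.09 FPKM with MCH and 65.0 ± 2.28 FPKM in Control) and Prkar1a first among the regulatory ones (59.3 ± 0.785 and 62.7 ± 2.5 FPKM). Adcy6 had 16.6 ± 1.83 FPKM with MCH and 21.7 ± 1.38 FPKM in Control. Rgs10 had 7.91 ± 1.11 and 5.04 ± 0.299 FPKM, Pde8b 1.17 ± 0.165 and 2.21 ± 0.144 FPKM, and Rgs4 0.471 ± 0.125 and 0.996 ± 0.0597 FPKM. The order within a family depends on the length used. The length implied by the deposited values was 0.409 to 3.83 times the exon bases of GENCODE M21 over 56 members (median 1.31). With the GENCODE lengths, Adcy6, Pde4a, Prkaca, Prkar1a, Akap8l and Creb3 were still first in their families, but Rgs19 stood above Rgs10, Crem above Creb1 and Pde1a above Pde1b.

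In the authors' deposited table, 3 members had a q-value under 0.05, where 522 of 19353 genes did. They were Pde8b (q = 0.00147), Rgs4 (q = 0.0110) and Akap13 (q = 0.0141) in the authors' deposited table. For Rgs10, Creb1 and Adcy6 the authors' deposited table gives q-values of 0.0700, 0.113 and 0.202. The authors' test is not given in the sources used here.

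At the edge of the minimum, the members with the lowest means were Rgs8, with a mean of 12.3 counts, Pde6g with 14.0 and Rgs16 with 15.8. Just below it, Akap3 had 5, 2 and 11 counts with MCH and 3, 1 and 8 counts in Control, and Akap5 had 10, 3 and 4 counts with MCH and 2, 2 and 2 counts in Control. Below the minimum lay also the cyclase genes Adcy5 and Adcy8, the phosphodiesterase genes Pde4c, Pde5a, Pde6a, Pde6h and Pde11a, the anchoring genes Akap4, Akap6 and Akap14, the pseudogene Prkaca-ps1 and the Rgs genes Rgs1, Rgs5, Rgs6 and Rgs7. None of these 17 genes was tested.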

How the data were processed

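Libraries of polyadenylated RNA came from 3 MCH and 3 Control samples. One deposited table holds whole-number read counts per gene and, per the file headers, the FPKM of each library. It also holds the authors' p-values and q-values, per the file headers. GRCm38 (mm10) is the build that the submitters' processing notes name. Neither the aligner, counting tool, annotation or strand setting nor the authors' own test is given in the sources used here. The deposited FPKM use 1 fixed length per gene: the length that counts, FPKM and library total imply differed by over 5% between libraries for 0 of 10888 genes.

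The counts were analysed in R 4.3.3 with edgeR 4.0.16. Genes were kept by filterByExpr (count of 10, total of 15), scaled by TMM and fitted on group alone with the robust quasi-likelihood method. Two-sided tests were adjusted by Benjamini-Hochberg over 13662 genes at a threshold of 0.05, and 5691 genes were left out. The biological coefficient of variation, common to all genes, was 0.174. CPM are TMM scaled, and an SE is the absolute unshrunken log2 coefficient over the square root of F. Replicates of a group were no second copies of each other (chi-square over degrees of freedom of at least 16 in every pair). The fit was tested on simulated data. With gene-wise spread in the simulation, a larger share of the calls was false than the threshold of 0.05 allows, and with spread that follows the mean alone the share was under it, so calls close to the threshold are less certain than their adjusted p says.

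The members and lists were chosen with earlier results of these data known. Named with values were every called member, the most abundant member and the member with the largest change of each family, and those beside the minimum of 10 counts. Other members are named to complete a family, and those unequal between replicates were chosen after their values were seen. Gene overlaps came from GENCODE M21, whose IDs included all 78 genes of the name rule. The ID named Pde2a in the table is Gm45837 there and shares 95.6% of its exon bases with Pde2a.

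Results were recomputed with RLE or upper-quartile factors, with DESeq2 1.42.0, with limma-voom (limma 3.58.1), with limma on log2(FPKM + 1), without and with another filter on low counts, without the robust option, with replicate number as a block and with each library left out. Removing a trend with length and GC content from each library was a choice made after seeing the data. The length was the one implied by the deposited counts and FPKM, and GC content came from the GENCODE M21 transcripts.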

Additional observations from a re-analysis of the deposited data

How the results depend on the processing

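Under RLE and upper-quartile scaling, limma-voom, both other filters on low counts and the non-robust fit, the direction and the call of all 37 members tracked were the same. limma on log2(FPKM + 1) lost 2 calls, and DESeq2 added that of Creb1. Over all genes the higher calls were 497 in the fit reported, 800 in DESeq2, 948 with the length and GC trend removed and 65 to 722 with 1 library left out, and the lower calls were 738 and, with 1 library left out, 256 to 867. Members called lower numbered 1 to 6 and higher 0 to 1 with 1 library left out, and 2 were higher with the length and GC trend removed. Other pathway genes called lower numbered 5 to 12 and higher 0 to 2 with 1 library left out, and 2 were higher in DESeq2, without a filter on low counts, in limma on log2(FPKM + 1) and with the length and GC trend removed. Some uncalled log2 fold changes crossed 0 when 1 library was left out: Akap2 ran from -0.45 to 1.73, Akap8l from -0.04 to 0.01, Pde7a from -0.01 to 0.07, Rgs11 from 0.00 to 0.13, Rgs19 from -0.07 to 0.26 and Rgs9 from -0.37 to 0.16. Prkacb was at 0.02 with the length and GC trend removed. The cause was not tested. With 3 libraries a group and 16521980 to 18803949 counts each, members near 10 counts, such as Rgs8, carry wide errors.

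The replicate number as a block left 1 member called lower (Pde8b) and 0 higher, 151 genes lower and 28 higher over all genes, and 3 other pathway genes lower and 0 higher. The numbers share no source in the labels, and libraries of the same number deviated apart (r = -0.161, -0.0386 and -0.0138 for numbers 1, 2 and 3). No sample correlated best with its own number. With 3 libraries a group, these correlations cannot tell whether samples of the same number shared an animal, culture or day.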
